A study of Homo sapiens with 4 samples.

Results

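The genes described here encode the proteasome and the factors that assemble it, cap it or remove ubiquitin at it. They were taken from the count table by name, as every symbol made of PSMA, PSMB, PSMC, PSMD, PSME, PSMF or PSMG and a number, together with the deubiquitinases UCHL5 and USP14, the assembly chaperone POMP and the ubiquitin receptor ADRM1. This gave 52 of 18917 genes, of which 49 reached 1 CPM (counts divided by library size, after TMM scaling in edgeR) in 2 or more libraries and were tested. RNA had been sequenced in 4 libraries from an immortalized human embryonic kidney line, 2 labelled WT and 2 labelled KO for THUMPD1, the adaptor through which NAT10 acetylates cytidine in leucine and serine tRNAs. The labels call the line HEK293 and the study's methods HEK-293T, and all cells were grown in DMEM with serum and 2 mM glutamine. In the methods the KO cells had been made with a pair of CRISPR-Cas9 guides and sorted as single cells, so that genotype and clone cannot be told apart. The labels do not say whether the libraries of a genotype came from separate cultures, so p-values measure the spread between these libraries, which may be technical.

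Total counts ran from 7875722 to 11362363 per library, and 3 counts, taken as the floor, were worth 0.259 to 0.391 CPM. THUMPD1 itself was at 356 and 468 counts in WT against 71 and 58 in KO, a log2 fold change of -2.93 (standard error 0.17). All 9 markers listed for this line were tested and 4 of them were called, among them NEFM, at -2.87, and LHX1, which had only 6 counts in each WT library. Of 6 markers of other cell types, PTPRC, ALB, PECAM1 and HBA1 did not pass 5 counts in any library, whereas COL1A1 had 194 to 246 counts and CD68 21 to 34, and neither of these was called. Across all 13128 genes tested, 20.9% were called, 8.79% higher and 12.1% lower in KO cells, a call being a Benjamini-Hochberg adjusted p under 0.05 in the quasi-likelihood test of edgeR. With library size alone in place of TMM the split of the calls turned, from 42.0% higher to 64.2% higher. With 2 libraries on each side the smallest two-sided p of an exact permutation test is 0.333, so single genes were tested only in that fit across all genes.

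The proteasome degrades proteins that carry ubiquitin chains. Its core particle is a barrel of stacked rings, the outer ones built from alpha subunits and the inner ones from beta subunits, some of which cut peptide bonds inside the chamber. The regulatory particle sits on the end of the barrel. Its base holds a ring of ATPases, which unfold substrates, and ubiquitin receptors, and its lid holds PSMD14, which cuts the ubiquitin chain off. Dedicated chaperones build both particles. When proteasome activity is low, cells raise the genes of most subunits together through the transcription factor NRF1, the product of NFE2L1, which binds antioxidant response elements in their promoters.

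The RNA of the proteasome did not move as one block in THUMPD1 KO cells. Among the 49 members tested, 6 were called higher and 10 lower, that is 16 in all, and the other 33 were not called. The balance depended on the scaling, since with library size alone 9 members were called higher and 6 lower. The background was 20.9% of all genes tested for calls in either direction, 8.79% for higher and 12.1% for lower. In CPM, the genotypes did not overlap in 16 members with KO above WT and in 21 with KO below WT. Of all genes tested, 60.4% did not overlap, 30.4% with KO above and 30% (3935 genes) with KO below. The median log2 fold change of the members was 0.005, against 0.01 for all genes tested, and 25 members lay above 0. PSMD5 was the only member whose RNA changed by more than 1 log2 unit, and every other member lay between -0.60 and 0.44. Summed over the members, CPM were 5502 and 5495 in the WT libraries and 5324 and 5290 in the KO libraries. As a share of raw counts the order was the opposite, with 0.536% and 0.532% in WT and 0.552% and 0.539% in KO libraries, so that the direction of the total depended on the scaling.

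**Figure D1:**
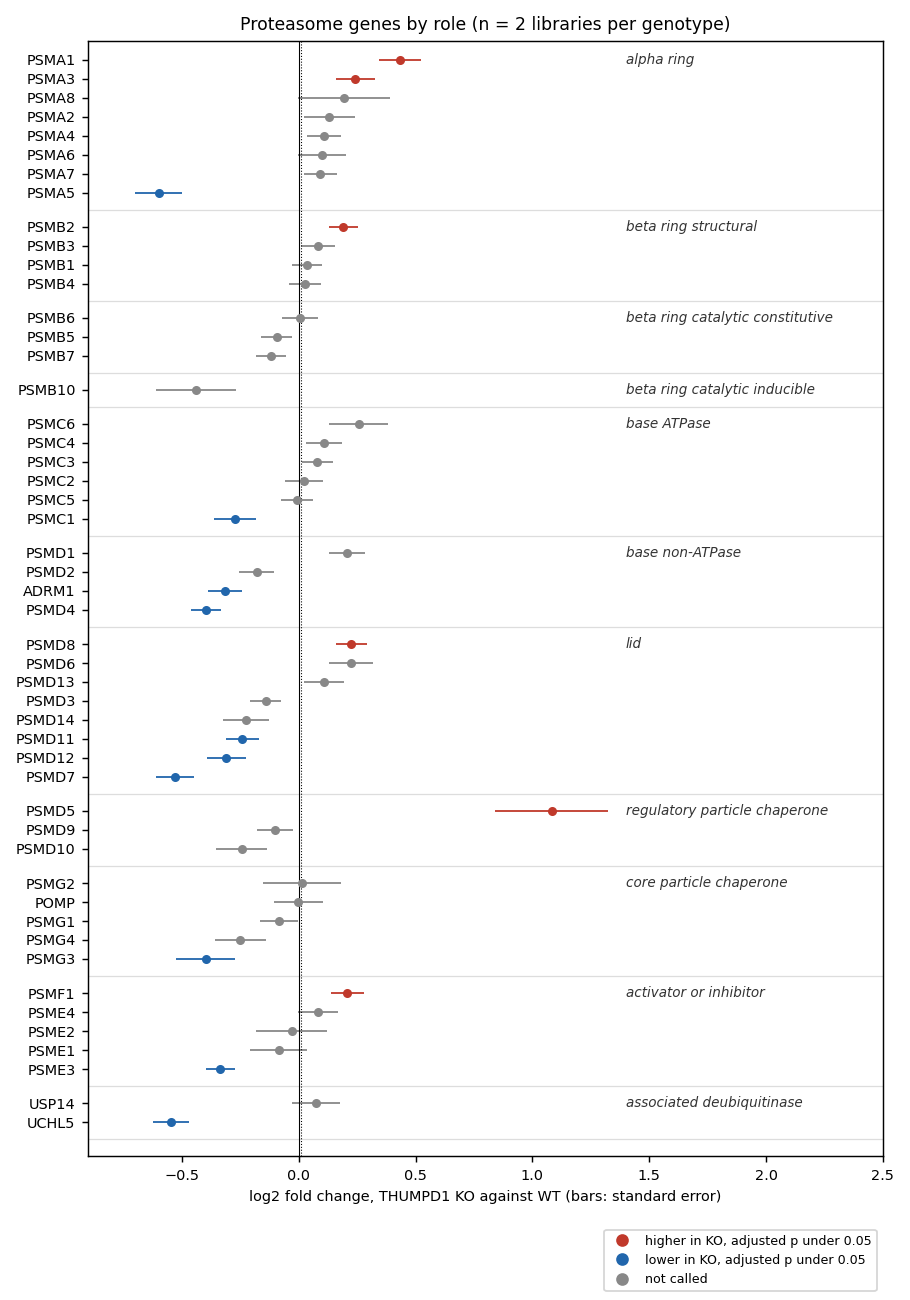
Log2 fold change of each of the 49 members tested, grouped by role, with its standard error as the bar (2 libraries per genotype). Red points were called higher in KO cells (6 members), blue points lower (10) and grey points neither (33), and the dotted line marks the median of all genes tested.

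Of the 19 ring genes of the core particle, 16 were tested, 3 were called higher and 1 lower, with a median log2 fold change of 0.088. The background over all genes tested was 8.79% called higher and 12.1% lower. PSMA1, an alpha ring subunit, had 72.8 and 70.2 CPM in WT and 104 and 88.6 CPM in KO libraries. Both KO libraries lay above both WT libraries, and the log2 fold change was 0.44 (standard error 0.09, adjusted p = 0.00102). PSMA3, another alpha subunit, had 92.6 and 83.0 CPM in WT and 106 and 101 CPM in KO libraries. The genotypes did not overlap, and the log2 fold change was 0.24 (standard error 0.08, adjusted p = 0.0364). PSMB2, a beta ring subunit without a catalytic site, had 255 and 274 CPM in WT and 309 and 295 CPM in KO libraries, a log2 fold change of 0.19 (standard error 0.06, adjusted p = 0.0322).

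The ring gene called lower was PSMA5, an alpha subunit. It had 72.8 and 65.0 CPM in WT and 46.6 and 44.04 CPM in KO libraries. It was the member with the lowest log2 fold change, -0.60 (standard error 0.10, adjusted p = 0.000115), or 0.660 times the WT level (95% interval 0.571 to 0.763). The other alpha genes, PSMA2, PSMA4, PSMA6, PSMA7 and PSMA8, lay between 0.09 and 0.19 and were not called. The structural beta genes PSMB1, PSMB3 and PSMB4 lay between 0.03 and 0.08 and were not called.

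None of the subunits that carry the constitutive active sites was called. PSMB5, which has the chymotrypsin-like site, had 167 and 170 CPM in WT and 158 and 157 CPM in KO libraries. PSMB6, with the caspase-like site, had 103 and 111 CPM in WT and 107 and 108 CPM in KO libraries. PSMB7, with the trypsin-like site, had 225 and 227 CPM in WT and 214 and 203 CPM in KO libraries. The adjusted p were 0.343, 0.974 and 0.196 in that order. The 95% intervals of their KO to WT ratios were 0.851 to 1.031 for PSMB5, 0.899 to 1.120 for PSMB6 and 0.840 to 1.009 for PSMB7. Changes within these intervals could not be told from none.

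The inducible counterparts, which replace those subunits in the immunoproteasome after interferon, were near or at the floor except for PSMB10. PSMB8 had 0, 1, 0 and 0 counts in WT replicates 1 and 2 and KO replicates 1 and 2, against 1278 to 1869 counts of PSMB5. In WT replicate 1 a count of 0 allows PSMB8 a share of up to 0.235% of the counts of that pair, and in KO replicate 1 up to 0.164%, for counting error only. PSMB9 had 8 and 3 counts in WT and 9 and 8 in KO libraries, or 0.245% to 1.001% of the counts of PSMB9 and PSMB6. PSMB11, the form of the thymus, had 0 counts in every library. These 3 genes did not pass the filter on low counts and were not tested, so no difference between genotypes was detectable for them at this depth.

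PSMB10, the inducible partner of PSMB7, had 20.3 and 19.1 CPM in WT and 13.9 and 15.1 CPM in KO libraries. Both KO libraries lay below both WT libraries, but the log2 fold change of -0.44 (standard error 0.17) did not pass the threshold (adjusted p = 0.0673). Of the counts of PSMB10 and PSMB7, PSMB10 made up 8.29% and 7.76% in WT and 6.11% and 6.94% in KO libraries. The exact binomial 95% intervals ran from 6.78% to 9.62% in WT and from 5.22% to 8.05% in KO, and they overlap. PSMB10 lies on chromosome 16, where the median log2 fold change of 573 tested genes was also -0.44. On the other chromosomes except 22, the medians lay between -0.06 and 0.10. The nearest tested neighbours of PSMB10, namely PSKH1, CTRL, LCAT and SLC12A4, lay at -0.005, 0.55, -0.13 and 0.33, and none was called. The part of the chromosome in the value of PSMB10 was not tested.

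**Figure D2:**
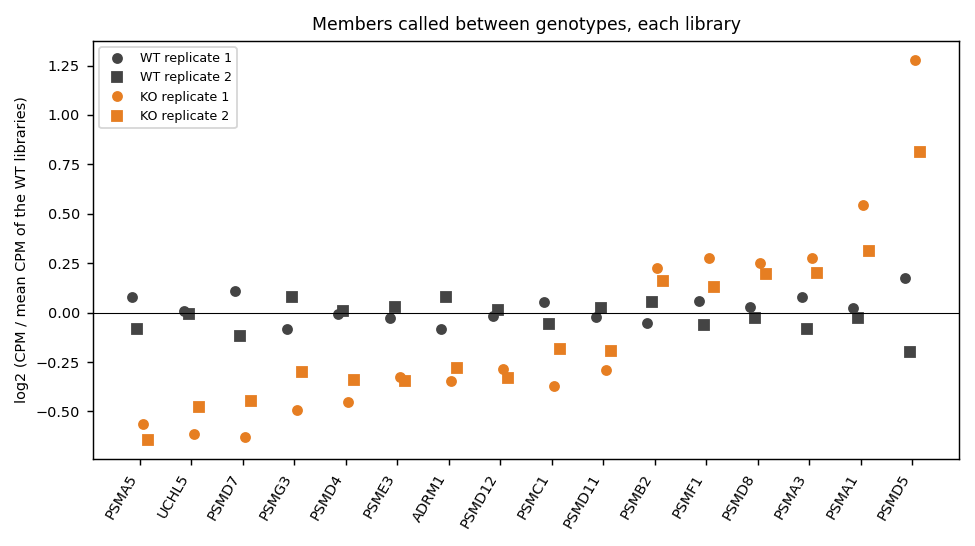
CPM of the 16 called members in each library, as log2 of the ratio to the mean of the 2 WT libraries. Grey points are WT and orange points KO libraries, circles replicate 1 and squares replicate 2, and for each member both KO libraries lie on the same side of both WT libraries.

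Of the 18 base and lid genes of the regulatory particle, all tested, 6 were called lower and 1 higher, with a median log2 fold change of -0.074, where 12.1% of all genes tested were called lower and 8.79% higher. With library size alone, and likewise at an adjusted p under 0.01, 3 of them (PSMD4, ADRM1 and PSMD7) were called lower. PSMD4, a ubiquitin receptor in the base, had 292 and 295 CPM in WT and 215 and 232 CPM in KO libraries. The 2 genotypes stood well apart, and the log2 fold change was -0.40 (standard error 0.06, adjusted p = 6.27e-05). ADRM1, another ubiquitin receptor of the base, had 161 and 180 CPM in WT and 134 and 140 CPM in KO libraries, a log2 fold change of -0.32 (standard error 0.07, adjusted p = 0.00243), which was -0.23 and not called without WT replicate 2 (adjusted p = 0.0526).

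UCHL5 is a deubiquitinase that docks on the proteasome through ADRM1. It had 137 and 135 CPM in WT and 88.9 and 97.7 CPM in KO libraries. Its log2 fold change was -0.54 (standard error 0.08, adjusted p = 1.11e-05), or 0.686 times the WT level (95% interval 0.614 to 0.765). USP14, the other deubiquitinase that binds the base reversibly, had 48.5 and 51.5 CPM in WT and 54.4 and 51.1 CPM in KO libraries. Its genotypes overlapped, and its ratio of 1.053 (95% interval 0.909 to 1.221) was not called (adjusted p = 0.657). PSMD14, the deubiquitinase built into the lid, had 61.9 and 65.4 CPM in WT and 52.4 and 56.8 CPM in KO libraries, and at -0.22 (standard error 0.10) it was not called (adjusted p = 0.107).

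Of the 8 lid genes, 3 were called lower and 1 higher, against 12.1% and 8.79% of all genes tested. PSMD7, which pairs with PSMD14, had 182 and 155 CPM in WT and 109 and 124 CPM in KO libraries. Its log2 fold change was -0.53 (standard error 0.08, adjusted p = 3.37e-05), and it is the other member on chromosome 16, so its fall stood beside the median of -0.44 there. The lid subunits PSMD11 and PSMD12 were both lower. Both lie on chromosome 17, where the median of 768 tested genes was -0.06, and none of their nearest tested neighbours was called. PSMD12 had 87.8 and 89.5 CPM in WT and 72.6 and 70.5 CPM in KO libraries, a log2 fold change of -0.31 (standard error 0.08, adjusted p = 0.0101). PSMD11 had 153 and 158 CPM in WT and 127 and 136 CPM in KO libraries, a log2 fold change of -0.24 (standard error 0.07, adjusted p = 0.0159). PSMD8 went the other way, with 173 and 167 CPM in WT and 202 and 195 CPM in KO libraries and a log2 fold change of 0.23 (standard error 0.07, adjusted p = 0.0155). The lid genes PSMD3, PSMD6 and PSMD13 were not called, at -0.14, 0.22 and 0.11.

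Of the 6 ATPases of the base, PSMC1 to PSMC6, only PSMC1 was called, with 92.1 and 85.4 CPM in WT and 68.7 and 78.1 CPM in KO libraries and a log2 fold change of -0.27 (standard error 0.09, adjusted p = 0.0312). The other 5 ranged from -0.01 (PSMC5) to 0.26 (PSMC6). Among all genes tested, 20.9% were called in either direction. Of the large scaffold subunits of the base, PSMD1 missed the threshold (0.21, standard error 0.08, adjusted p = 0.0507) but was called higher under 6 of the 9 alternatives, with 125 and 141 CPM in WT and 158 and 149 CPM in KO libraries. PSMD2, the other scaffold, was not called at -0.18 (adjusted p = 0.089).

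PSMD5 had the largest change of any member. It is a chaperone that holds ATPases of the base during assembly and leaves before the proteasome is complete. Its counts were 57 and 63 in WT against 185 and 123 in KO, or 7.43 and 5.73 CPM against 15.98 and 11.5 CPM. Both KO libraries lay above both WT libraries, and the log2 fold change was 1.08 (standard error 0.24, adjusted p = 0.00197), a ratio of 2.119. It ranked 263 among 13128 genes by log2 fold change. The KO libraries also differed between themselves, and without KO replicate 1 the log2 fold change was 0.82 and no longer called (adjusted p = 0.09). Of its nearest tested neighbours on chromosome 9, FBXW2 lay at 0.20 and was called higher (adjusted p = 0.0376), and MEGF9 at 0.06, PHF19 at 0.15 and TRAF1 at 0.57 were not called. The chaperones PSMD9 and PSMD10, which act at the same stage, lay at -0.10 and -0.24 and were not called.

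Of the 5 chaperones of the core particle, 1 was called, where 20.9% of all genes tested were called in either direction. PSMG3 had 38.5 and 43.1 CPM in WT and 29.02 and 33.1 CPM in KO libraries, a log2 fold change of -0.40 (standard error 0.13, adjusted p = 0.0234). PSMG4, its partner, lay at -0.25 and was not called (adjusted p = 0.108). PSMG1 and PSMG2, which form the other pair, lay at -0.08 and 0.01. POMP, which closes the beta ring, had 47.5 and 51.0 CPM in WT and 47.1 and 51.6 CPM in KO libraries. Its genotypes overlapped, with a ratio of 0.999 (95% interval 0.858 to 1.163, adjusted p = 0.995).

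Of the 5 activators and inhibitors that bind the core particle, 1 was called lower, 1 higher and 3 neither. The background over all genes tested was 12.1% called lower and 8.79% higher. PSME3, the subunit of the nuclear activator, had 268 and 278 CPM in WT and 218 and 215 CPM in KO libraries, a log2 fold change of -0.33 (standard error 0.06, adjusted p = 0.000352). PSMF1, an inhibitor of the core particle, had 199 and 183 CPM in WT and 231 and 209 CPM in KO libraries, a log2 fold change of 0.21 (standard error 0.07, adjusted p = 0.0318). PSME1 and PSME2, the subunits of the interferon-inducible activator, and PSME4, a single-chain activator, lay between -0.09 and 0.08 and were not called.

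Of the 16 calls, 6 (PSMA1, PSMA5, UCHL5, PSMD7, PSMD4 and PSME3) were made under all 9 alternatives with all libraries and with each library left out. PSMD5 and ADRM1 were called under the 9 alternatives and in 3 of 4 fits with a library left out. The other 8 were lost under at least 1 alternative. Without KO replicate 1, 8 of the 16 were called, and PSMA3, PSMB2, PSMC1, PSMD5, PSMD8, PSMD11, PSMF1 and PSMG3 were not. Without WT replicate 2, 9 were called, and ADRM1, PSMA3, PSMD8, PSMD11, PSMD12, PSMF1 and PSMG3 were not. Without WT replicate 1 PSMB2 and PSMC1 were lost, and without KO replicate 2 PSMD12. Each fit with a library left out also called a smaller share of all genes tested than the fit with all libraries. That share was smallest without KO replicate 1, so these losses are not particular to the members. With DESeq2, PSMA3, PSMB2, PSMF1, PSMC1 and PSMG3 were not called, although their log2 fold changes there were 0.24, 0.19, 0.21, -0.27 and -0.40. DESeq2 called 14.3% of all genes tested, against 20.9% with edgeR and TMM. PSMA3, PSMB2 and PSMF1 were also lost when the genes of chromosomes 16 and 22 were left out of the scaling, at 0.22, 0.17 and 0.19. With library size alone PSMC1, PSMD11, PSMD12 and PSMG3 were lost, at -0.19, -0.16, -0.22 and -0.31, and PSMC1 and PSMD11 were also lost with the quantile normalization and limma-voom that the study's methods name. In 13 of the 16, KO replicate 1 lay farther from the WT mean than KO replicate 2, among them all 6 of the rises. The same was not counted over all called genes, so it cannot be taken as particular to the members.

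**Figure D3:**
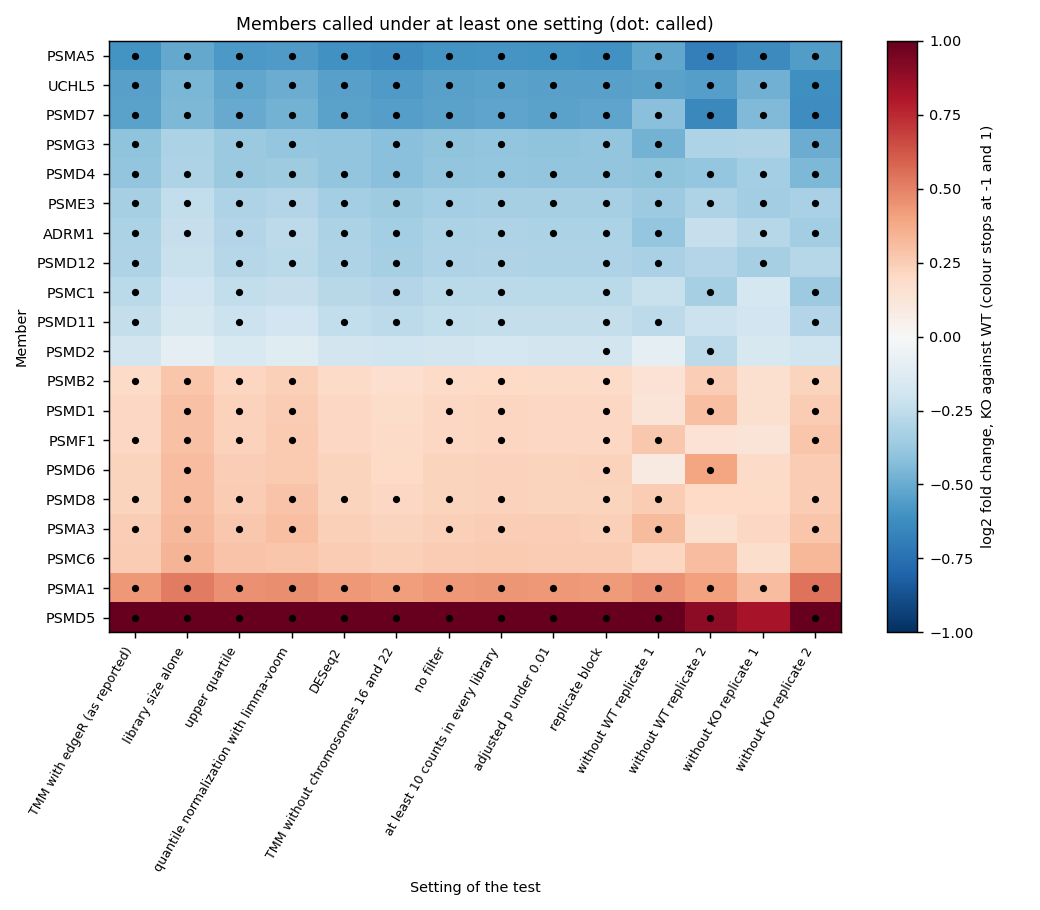
The 20 members called under at least 1 of 14 settings, in rows, with their log2 fold change as colour (blue lower and red higher in KO cells) and a dot where the setting called them. Dots run through every column for PSMA5, UCHL5, PSMD7, PSMD4, PSME3 and PSMA1, and PSMD5 lacks one only without KO replicate 1.

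Levels of different genes were compared as CPM per kilobase of the canonical transcript of GENCODE 44. Among the 49 tested members the WT level ran over a 119.4-fold range, from 232 ± 3.25 for PSMB1 to 1.95 ± 0.356 for PSMD5 (CPM per kilobase, SD, n = 2). PSMB1 and PSMB7, at 230 ± 1.36, did not differ beyond their spread, and PSMD4 followed at 223 ± 1.82. In KO cells PSMD4 stood at 169 ± 8.92, below PSMB1 (238 ± 3.49), PSMB7 (212 ± 8.08), PSMB4 (185 ± 10.5) and PSMB3 (174 ± 0.429), although PSMD4 and PSMB3 did not differ beyond their spread. Within the alpha ring the WT level ran from 139 ± 1.47 for PSMA7 to 18.05 ± 1.446 for PSMA5 and 7.34 ± 1.24 for PSMA8. PSMA7 and PSMA5, present in equal numbers in the particle, had mean WT levels of 134 and 68.9 CPM before division by length. Their canonical transcripts are 962 and 3815 bases long, so their gap per length rests largely on the lengths used. USP14 stood at 10.1 ± 0.425 and UCHL5 at 26.2 ± 0.187 in WT, and in KO cells UCHL5 fell to 18.0 ± 1.20. PSMD5, at 4.07 ± 0.927 after its rise, remained the lowest tested member in KO cells. These lengths come from GRCh38 and not from hg19, the build in the submitters' processing notes, and the transcripts used by these cells may be shorter or longer.

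PSMA8, known as the alpha subunit of the testis, was detected, with 89 to 197 counts per library. Its transcript shared no 31-base word with PSMA7, its paralog, or with any other gene outside its locus. At a log2 fold change of 0.19 it was not called (adjusted p = 0.526).

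Processed pseudogenes are common for proteasome genes. In 12 of 52 members over 5% of the 31-base words of the transcript also occurred in genes elsewhere in the genome, and 25 members shared none. Of the 16 called members, 5 were above that limit, and their counts are uncertain in so far as the counting could split reads between places that share words. PSMD4 shared 40.2% of its words, most of them with PIPSL, a retrocopy that joins PIP5K1A and PSMD4, and PIP5K1A itself lay at -0.10 (adjusted p = 0.275). PSMC1 shared 34.2%, PSMD12 9.82%, PSMB2 8.46% and PSMD8 8.27%. Not all of this sharing was with pseudogenes. The shared words of PSMB2 lay in 3568 other genes, 71 of them pseudogenes, and PSMD12P1 held 5.04% of the words of PSMD12. UCHL5, PSME3, ADRM1, PSMD11, PSMA3 and PSMF1 shared no word, and PSMA5 shared 0.11%. Moreover, 11 of the 16 overlap another annotated gene, as do 33 of all 52 members. Whether the counting used the strand is not stated in the sources used here.

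The 16 called members had 64 nearest tested neighbours (2 on each side). Of these, 8 were called in the same direction as the member and 1 in the opposite direction. Over all genes tested, 20.9% were called in either direction, 8.79% higher and 12.1% lower. TROVE2, which overlaps UCHL5, lay at 0.05 (adjusted p = 0.717), SORT1, next to PSMA5, at -0.03 (adjusted p = 0.814), and COPB1 and PDE3B, on either side of PSMA1, at 0.07 and -0.04. Of the 8 called the same way, 3 are neighbours of PSMD7 on chromosome 16, namely ZFHX3, at -0.80 (adjusted p = 1.69e-09), PMFBP1 and RFWD3. They lie 404943, 2119936 and 315111 bases from PSMD7. GLG1, closer to it at 141139 bases, lay at 0.006 and was not called. EFCAB11, at -1.83 (adjusted p = 3.02e-12), lies 301750 bases from PSMC1, and the closer TDP1 and NRDE2, at 0.03 and -0.05, were not called. The remaining genes called the same way were MAFK near PSMG3, at -0.72 (adjusted p = 0.00115), VPS72 near PSMD4, COA3 near PSME3 and FBXW2 near PSMD5. No member lies on chromosome 22.

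Promoters were read because proteasome genes are known targets of NRF1. RefSeq's promoter table (GRCh38.p14, 250 bases before to 50 after the gene's start) held 46 of the 52 members. PSMA7, PSMB1, PSMB6, PSMB7, PSMD4 and PSMG3 were not in it. The core of the antioxidant response element, searched as TGACNNNGC on both strands, was found in 16 of the 46 members, or 34.8%, against 14.8% of 10594 tested genes with a promoter and 13.6% of all 27305 promoters. The CCAAT box, searched as CCAAT on both strands, was found in 20, or 43.5%, against 36.5% and 35.7%. Of the 15 tested members with the antioxidant core, 4 (UCHL5, PSMD12, ADRM1 and PSMD5) were called, and of the 28 tested members with a promoter and without it, 10. Of all genes tested, 20.9% were called, and whether calls depend on the core was not tested. The matches of UCHL5, PSMD12 and PSMD5, which were called, and of PSMB3 and PSMD3 for comparison, are shown as 30 bases around a match (5′ to 3′ in the direction of the gene, the match in capitals):

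UCHL5, chr1:193059392-193059421, minus strand, lower in KO: gcgctgcaggTGACGGCGCccggaggctgt

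PSMD12, chr17:67366723-67366752, minus strand, lower in KO: agacaaaaccTGACGCTGCaggctggagtg

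PSMD5, chr9:120843037-120843066, minus strand, higher in KO: tggctacagtTGACACGGCcctaacggagg

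PSMB3, chr17:38752627-38752656, plus strand, not called: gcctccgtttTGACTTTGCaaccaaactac

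PSMD3, chr17:39980760-39980789, plus strand, not called: tcccctttgtTGACTCGGCcatcggcctgc

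The matches start 51 bases before the gene's start in UCHL5, 165 in PSMD12, 134 in PSMD5, 104 in PSMB3 and 37 in PSMD3, which holds another match on the opposite strand after its start. Members with the same letters went up, down or neither, and a match in these letters is a description and not a binding site.

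Because THUMPD1 loss concerns leucine tRNAs, the leucine codons of the members were counted in the canonical coding sequences. The codons UUA, UUG, CUU and CUA made up a median of 47.1% of the leucine codons in the 49 tested members, against 40.9% in 12937 tested genes with a coding sequence (interquartile range 22.7% to 61.3%). Members ran from 12.5% in PSMD9 to 100% of the 16 leucine codons of PSMA8. The median was 43.9% in the 6 members called higher (27.5% to 72.2%) and 46.7% in the 10 called lower (15.4% to 79.3%). PSMA1 and PSMA5, at the ends of the alpha ring, had 66.7% and 68.4%. Across the 49 members the share and the log2 fold change had a Pearson's r of 0.14 and a Spearman's rho of 0.19, and across all 12937 genes 0.23 and 0.30. These are across genes, which share the same 4 libraries and are not independent replicates.

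**Figure D4:**
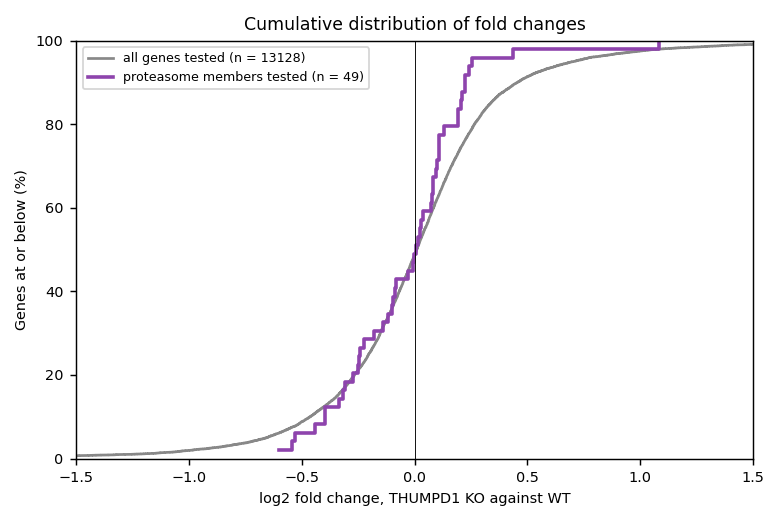
Cumulative share of genes (%) at or below each log2 fold change, for the 49 proteasome members tested (purple) and all 13128 genes tested (grey). The curves cross 50% at 0.005 and 0.01, and the axis leaves out some genes with larger changes but no member.

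Other genes of the pathway came from lists that hold no member. Of 65 such genes in the table, 64 were tested, 7 were called higher and 11 lower, with a median log2 fold change of 0.043, against a background of 8.79% higher and 12.1% lower. NFE2L1, the gene of NRF1, stood at 1520 and 2360 counts in WT against 2178 and 2021 in KO and was not called at -0.13 (standard error 0.07, adjusted p = 0.168). Of the 9 genes of its axis, SEL1L was higher (0.27) and VCP, MAFK and MAFF were lower. VCP, the ATPase that extracts NRF1 from the membrane and delivers many substrates to the proteasome, lay at -0.29 (standard error 0.07, adjusted p = 0.00286). MAFF and MAFK, small partners of NRF1, lay at -2.12 (standard error 0.56, adjusted p = 0.00766) and -0.72 (standard error 0.15, adjusted p = 0.00115). MAFF stood at 37 and 31 counts in WT against 8 and 11 in KO and lies on chromosome 22, where the median of 311 genes was -0.42.

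Of the 14 genes of VCP and its cofactors, VCP and UFD1L were called lower and FAF2 higher (0.21), and UFD1L, at -0.31, also lies on chromosome 22. The background over all genes tested was 12.1% lower and 8.79% higher. Of the 17 shuttle and accessory factors, 3 were lower and 1 was higher, beside the same background. The lower ones were SHFM1, a small lid subunit under its older symbol, at -0.27 (standard error 0.07, adjusted p = 0.0059), and the shuttle factors UBQLN4 and UBQLN1, at -0.26 and -0.24. KIAA0368, a scaffold that binds the proteasome, was higher at 0.23 (standard error 0.07, adjusted p = 0.0144). The ubiquitin activating enzymes split, with UBA1 lower at -0.27 (adjusted p = 0.00143) and UBA6 higher at 0.28 (adjusted p = 0.0331).

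Of 10 tested genes of antigen processing, which uses peptides made by the proteasome, TAPBP (-1.05, adjusted p = 0.00461) and CALR (-0.26, adjusted p = 0.00226) were lower and B2M was higher (0.25, adjusted p = 0.0203). TAP1 and TAP2, which lie beside PSMB8 and PSMB9, were not called at -0.17 and -0.26, and NLRC5 did not pass the filter on low counts. Of the 9 genes of the COP9 signalosome, a complex built like the lid, COPS6 was higher (0.23, adjusted p = 0.0134) and none was lower. For both lists the background over all genes tested was 8.79% called higher and 12.1% lower.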

How the data were processed

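RNA was sequenced paired-end from 2 WT and 2 THUMPD1 KO libraries (Zymo-Seq RiboFree kit, per the labels), and groups and replicate numbers were taken from the sample titles. The authors deposited raw counts per gene symbol, without normalization. The submitters' processing notes name hg19, while the study's methods for RNA-seq describe STAR alignment to GRCh38 and RSEM, with 3 samples of this line and another library kit, and those for ribosome profiling name hg19 with canonical UCSC transcripts. Which of these made the counts is not given in the sources used here. A second table, with the authors' own comparison (mean, log2 fold change, error and p-values), was not used. Every entry of the count table had a gene name.

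Genes that reached 1 CPM, before TMM scaling, in 2 or more libraries were fitted with edgeR 4.0.16 (TMM, glmQLFit, glmQLFTest) under R 4.3.3. P-values were adjusted by Benjamini and Hochberg over all of these genes, with a threshold of 0.05. Standard errors were the log2 fold change over the square root of F, and 95% intervals used the t distribution of that fit. Alternatives used DESeq2 1.42.0 and limma 3.58.1, and the test was tested on simulated counts. Replicates differed by more than sampling noise (chi-square per degree of freedom 4.08 in WT and 6.90 in KO) and were kept apart. Binomial intervals and floors cover counting error only, whereas the 95% intervals of KO to WT ratios also hold the spread between libraries. The members, lists and named genes (called members, catalytic subunits, USP14, UCHL5, POMP, ADRM1, at most 4 called genes per pathway list, NFE2L1 and VCP) were chosen with earlier results of these data known; other named genes were chosen after their values were seen. Chromosomes, transcripts and neighbours came from GENCODE 44, promoters from RefSeq, both on GRCh38. Figures were drawn in Python 3.11.15 (pandas 2.3.3, matplotlib 3.10.9). Some items of the lists are not reported here.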

Additional observations from a re-analysis of the deposited data

How the results depend on the processing

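The count of members called higher, 6, became 9 with library size alone, 3 with DESeq2, 3 with chromosomes 16 and 22 left out of the TMM scaling and 2 at an adjusted p under 0.01, and lay from 1 to 7 with a library left out, 1 being the fit without KO replicate 1. The count called lower, 10, became 6 with library size alone and 6 at an adjusted p under 0.01, and lay from 7 to 9 with a library left out. The stricter threshold accounts for its own counts, and for the others the cause was not tested. Of all genes tested, 20.9% were called with TMM in edgeR. The share was 24.7% with library size alone, 14.3% with DESeq2 and 21.3% without chromosomes 16 and 22 in the scaling. At an adjusted p under 0.01 it was 12.1%. The median of the members, 0.005, moved to 0.089 with library size alone, 0.030 with the upper quartile, 0.047 with limma-voom and -0.016 without chromosomes 16 and 22 in the scaling, and from -0.023 to 0.016 with a library left out. The median of all genes moved with it, to 0.095, 0.035, 0.028 and -0.011. With library size alone 64.2% of all calls were higher, against 42.0% with TMM. Calls of the other pathway genes, 18, became 10 at an adjusted p under 0.01 and lay from 10 to 17 with a library left out, lowest without WT replicate 2. No called member changed its direction under any of these settings. The deviations of libraries with equal replicate numbers had a correlation of 0.0243 across genes, which cannot show whether the libraries were paired. With the replicate block 19 members were called, 8 higher and 11 lower, among them the 16. Of all genes tested, 24.5% were called with that block, against 20.9% without it. Calls with a library left out rest on 1 residual degree of freedom, take the lone library to vary like the others, and were added after the data were seen. Each of these fits also called a smaller share of all genes tested than the fit with all libraries, least of all without KO replicate 1. Depth limits PSMB8, PSMB9 and PSMB11, which were not tested.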
